A study of Mus musculus with 12 samples.

Results

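Adiponectin, leptin, perilipin and other genes that mark fat cells were followed in bulk spleen RNA of mice treated with busulfan and gut microbiota. The 10 genes were Adipoq, Cfd, Retn and Lep (secreted factors), Plin1 and Cidec (coats of the lipid droplet), Fabp4, Lpl and Scd1 (handling of fatty acids) and Car3 (a carbonic anhydrase abundant in fat). They were picked by symbol from 18221 genes, as genes of the adipocyte lipid droplet and adipokines, with earlier results on these same spleens known. Their values are therefore a description. They went through the fit over all genes with every other gene, and whether they passed its threshold is given beside the share of all genes that did, without a p and not as evidence.

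Spleens came from 12 male ICR mice (an outbred stock), 3 in each of 4 groups. All mice were 3 weeks old when treatment began and 8 weeks old when tissue was taken. Con-sa mice received saline and no busulfan. B-sa mice received a single injection of busulfan, an alkylating anticancer drug, at 40 mg/kg and then saline. B+Con-FMT mice received the same injection and then small-intestinal microbiota of water-dosed mice by mouth for 2 weeks. B+A10-FMT mice received busulfan and the microbiota of donors dosed with alginate oligosaccharide, a seaweed sugar polymer, at 10 mg/kg. Busulfan was thus shared by 3 of the groups. Donor contents were pooled within each donor group, so the 3 recipients of a transplant do not stand for separate donors. Whether those 3 received 1 and the same pool is not stated. Every value is an RPKM, reads scaled to transcript length and to the total of mapped reads, summed over the transcripts of a gene.

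White adipocytes hold their triglyceride in 1 large droplet. Perilipin 1 and CIDEC coat that droplet, limit lipolysis and let droplets fuse, while FABP4 carries fatty acids through the cytoplasm. The same cells release adiponectin, which acts through AdipoR1 and AdipoR2, leptin, which reports fat stores through its receptor LEPR, resistin, and adipsin (the product of Cfd), the complement factor D of the alternative pathway. Lipoprotein lipase frees fatty acids from circulating lipoproteins, and stearoyl-CoA desaturase 1 makes monounsaturated fatty acids. Lpl and Scd1 are also used outside fat, by macrophages among other cells. Visceral fat lies along the splenic vessels, and in bulk RNA a spleen cut with more fat and a spleen with more adipocyte transcripts of its own cannot be told apart, just as fewer cells of a type and less RNA per cell cannot be.

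The samples carried the RNA of spleen. Summed over 12 genes of B cells, T cells and the red cell lineage, the level was 3211 to 3551 RPKM in every one of the 12 spleens. Brown fat markers were low, with a summed level of 2.85 to 5.68 RPKM over the list, and Ucp1, the uncoupling protein that defines brown fat, was listed at 0 in 11 of the 12 spleens. RNA of other abdominal tissues was present in unequal amounts and is described with the results. Depth, estimated from the steps between the lowest values, was 14800000 to 15900000 reads per spleen.

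Promoter sequence is shown for Adipoq, whose level moved with most of the other genes, and for Lep, whose level did not do so inside the groups. Each is the 250 bases before the annotated start in the RefSeq promoter table on GRCm38.p6, written 5′ to 3′ on the plus strand, which is the strand of both genes. Capitals mark matches on either strand to TTGCNNAA, a short form of the C/EBP binding motif, or to CCAAT. The Adipoq window is chr16:23146286-23146535 and the Lep window is chr6:29059971-29060220.
Adipoq: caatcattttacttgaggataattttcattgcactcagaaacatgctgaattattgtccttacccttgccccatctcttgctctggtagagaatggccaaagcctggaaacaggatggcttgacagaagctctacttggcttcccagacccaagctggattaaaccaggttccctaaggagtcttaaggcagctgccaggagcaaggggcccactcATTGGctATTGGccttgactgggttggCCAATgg
Lep: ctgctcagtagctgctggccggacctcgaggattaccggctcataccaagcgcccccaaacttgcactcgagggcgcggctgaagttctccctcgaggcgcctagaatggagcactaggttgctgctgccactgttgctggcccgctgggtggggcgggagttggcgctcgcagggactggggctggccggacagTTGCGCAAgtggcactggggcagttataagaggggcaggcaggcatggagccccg
The Adipoq window held CCAAT at 34, 27 and 7 bases before the start, and the Lep window held TTGCNNAA at 55 bases before it. CCAAT was present in 33.8% and TTGCNNAA in 9.56% of the 32851 promoter windows of the table. TTGCNNAA was also found in a window of Plin1, at 187 and 58 bases before the start, and in a window of Cidec, at 198 bases. The core of the TATA box, searched as TATAAA, had no match in the 7 windows of the 6 genes that the table holds, which are Adipoq, Cfd, Retn, Lep, Plin1 and Cidec. No match was found for the nuclear receptor site AGGTCA either, or for the direct repeat bound by PPAR-gamma, searched as a pair of AGGNCA with 1 base between. They occur in 12.4%, 14% and 0.338% of all windows. Car3, Fabp4, Lpl and Scd1 were not matched in that table.

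Adipoq, which encodes adiponectin (Entrez 11450, chr16:23146536-23157968), was highest after busulfan alone and lowest after both transplants. In Con-sa spleens its level was 12.6, 8.58 and 13.4 RPKM in mice 1, 2 and 3. In B-sa spleens it was 8.12, 21.7 and 15.4 RPKM, so that the B-sa group held the highest value of all and also a mouse below every Con-sa value. In B+Con-FMT spleens it was 9.09, 3.05 and 4.12 RPKM, and in B+A10-FMT spleens 5.62, 4.55 and 5.53 RPKM. The B+A10-FMT values lay below every Con-sa and every B-sa value, while mouse 1 of B+Con-FMT lay inside the range of both. The group means were 15.1 ± 6.81 for B-sa, 11.5 ± 2.59 for Con-sa, 5.42 ± 3.22 for B+Con-FMT and 5.23 ± 0.593 RPKM for B+A10-FMT (SD, n = 3 mice each). Each group overlapped the next in that order, B+Con-FMT overlapping Con-sa through its mouse 1.

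Cfd, the gene of adipsin (Entrez 11537, chr10:79890853-79892655), repeated the order of mice inside Con-sa, B-sa and B+Con-FMT with a wider spread than Adipoq. In B+A10-FMT its spread was narrower and the order was another. Its level was 65.0, 32.3 and 94.3 RPKM in Con-sa and 36.0, 110.0 and 82.3 RPKM in B-sa. After transplantation it was 46.7, 13.2 and 37.4 RPKM in B+Con-FMT and 24.2, 23.4 and 24.8 RPKM in B+A10-FMT. The 3 B+A10-FMT spleens differed by 1.06-fold from lowest to highest, against 2.92-fold in Con-sa, 3.06-fold in B-sa and 3.54-fold in B+Con-FMT. The B+A10-FMT mean of 24.1 RPKM was 2.65 times under the Con-sa mean and 3.15 times under the B-sa mean, with no overlap with either group.

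Retn, the gene of resistin (Entrez 57264, chr8:3655770-3659818), separated the groups less than the other secreted factors. In Con-sa it was 4.79, 3.45 and 9.28 RPKM, and in B-sa 4.45, 13.9 and 10.3 RPKM. In B+Con-FMT it was 8.39, 1.87 and 4.35 RPKM, and in B+A10-FMT 3.94, 6.16 and 2.67 RPKM. The ranges of all 4 groups overlapped one another. The mice with the highest Adipoq had the highest Retn in Con-sa, B-sa and B+Con-FMT, but in B+A10-FMT the highest Retn was in mouse 2, which had the lowest Adipoq.

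Lep, the gene of leptin (Entrez 16846, chr6:29060221-29073876), was the lowest of the 10 genes and had its own pattern. Its level was 0.33, 0.25 and 0.17 RPKM in Con-sa. In B-sa it was 0.71, 0.64 and 0.51 RPKM, above every other spleen. In B+Con-FMT it was 0.13, 0.13 and 0.10 RPKM, and in B+A10-FMT 0.08, 0.10 and 0.13 RPKM, below every Con-sa value. The B-sa mean was 2.48 times the Con-sa mean, 5.17 times the B+Con-FMT mean and 6.0 times the B+A10-FMT mean, and no B-sa value overlapped any other group. These levels stand for few reads, an estimated 3.92 to 33.9 per spleen, and Lep did not reach the level of 1 RPKM in 3 mice that was needed to enter the fit over all genes. Inside groups Lep did not follow the other genes. Mouse 1 of B-sa, the lowest of its group for Adipoq, had the highest Lep of all, and mouse 3 of Con-sa, the highest of its group for Adipoq, had the lowest Lep of its group.

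**Figure D1:**
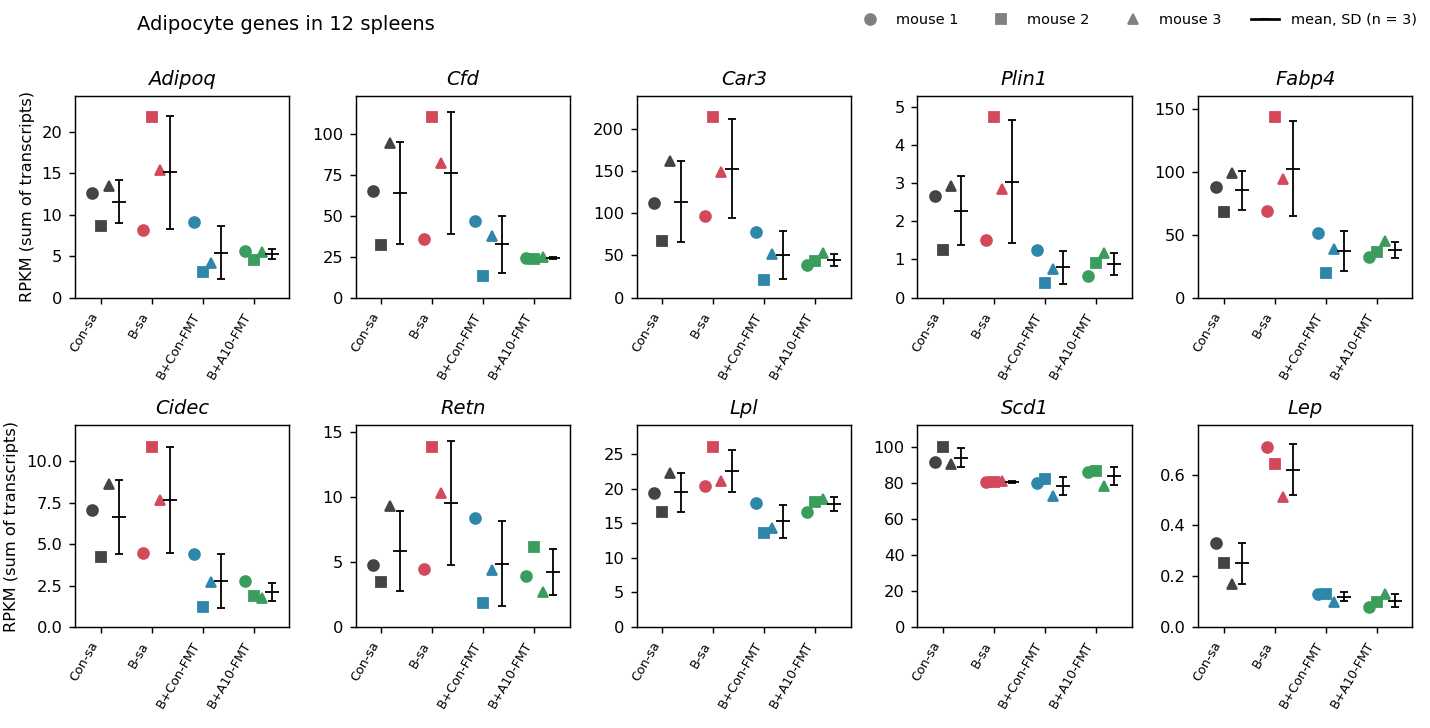
RPKM of each of the 10 genes (y axes start at 0) in every spleen by group, with the mouse number as marker shape and the group mean and SD of 3 mice as a black bar. Mouse 2 of B-sa is the highest spleen for 8 of the genes, Scd1 varies by 1.38-fold over all spleens, and the 3 B-sa values of Lep, 0.51 to 0.71 RPKM, stand above the rest.

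Plin1, which encodes perilipin 1 (Entrez 103968, chr7:79721164-79732904), had the widest range of the 10 genes, 12.4-fold from the lowest to the highest spleen. It was 2.67, 1.24 and 2.91 RPKM in Con-sa and 1.52, 4.72 and 2.84 RPKM in B-sa. After transplantation it was 1.24, 0.38 and 0.76 RPKM in B+Con-FMT and 0.57, 0.90 and 1.16 RPKM in B+A10-FMT. All 6 spleens of the transplant groups lay below every B-sa spleen, and the highest B+Con-FMT value equalled the lowest Con-sa value. The B-sa mean was 3.82 times the B+Con-FMT mean and 3.45 times the B+A10-FMT mean.

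Cidec, whose product lets droplets fuse (Entrez 14311, chr6:113424634-113435760), spanned 9.14-fold. It was 7.05, 4.21 and 8.63 RPKM in Con-sa and 4.49, 10.9 and 7.66 RPKM in B-sa. It was 4.40, 1.19 and 2.72 RPKM in B+Con-FMT and 2.75, 1.90 and 1.75 RPKM in B+A10-FMT. Every spleen of both transplant groups lay below every B-sa spleen, and every B+A10-FMT spleen also lay below every Con-sa spleen.

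Fabp4, the fatty acid carrier (Entrez 11770, chr3:10204342-10208616), lay lower in both transplant groups than in both groups given saline, without overlap. Its level was 88.2, 68.2 and 99.3 RPKM in Con-sa and 69.1, 143.4 and 94.5 RPKM in B-sa. It was 51.4, 19.8 and 38.8 RPKM in B+Con-FMT and 32.0, 36.4 and 44.7 RPKM in B+A10-FMT. The Con-sa mean of 85.2 ± 15.8 RPKM was 2.32 times the B+Con-FMT mean of 36.7 ± 15.9 and 2.26 times the B+A10-FMT mean of 37.7 ± 6.44 RPKM (SD, n = 3 each). Lep shared this separation at its low level.

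Car3, the carbonic anhydrase (Entrez 12350, chr3:14863538-14872381), had the highest single value of the 10 genes. It was 112, 66.4 and 162 RPKM in Con-sa and 96.5, 213.6 and 148 RPKM in B-sa. It was 77.8, 20.7 and 52.1 RPKM in B+Con-FMT and 38.8, 43.0 and 52.5 RPKM in B+A10-FMT. Both transplant groups lay below every B-sa spleen, and B+A10-FMT also lay below every Con-sa spleen, while mouse 1 of B+Con-FMT exceeded mouse 2 of Con-sa.

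Lpl, the gene of lipoprotein lipase (Entrez 16956, chr8:68880555-68906932), kept the order of mice in Con-sa, B-sa and B+Con-FMT but at a small scale, with a range of 1.93-fold over all spleens. In B+A10-FMT mouse 1, the highest for Adipoq, was the lowest for Lpl. It was 19.4, 16.6 and 22.3 RPKM for Con-sa, 20.5, 26.1 and 21.1 RPKM for B-sa, 17.97, 13.5 and 14.3 RPKM for B+Con-FMT and 16.7, 18.02 and 18.6 RPKM for B+A10-FMT. Both transplant groups lay below every B-sa spleen and overlapped Con-sa. Mouse 2 was the highest of B-sa and the lowest of Con-sa and of B+Con-FMT, as for Adipoq.

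Scd1, the desaturase (Entrez 20249, chr19:44394450-44407709), was the least variable gene. It was 92.1, 100.4 and 90.6 RPKM in Con-sa, above every spleen given busulfan. It was 80.6, 80.6 and 81.3 RPKM for B-sa, 79.9, 82.5 and 72.7 RPKM for B+Con-FMT and 86.6, 87.1 and 78.5 RPKM for B+A10-FMT, and these 3 groups overlapped. The Con-sa mean of 94.4 ± 5.30 RPKM was 1.17 times the B-sa mean of 80.8 ± 0.405 RPKM (SD, n = 3 each). Mouse 2 of Con-sa, the lowest of its group for the other genes except Lep, had the highest Scd1 of all. Reads of Scd1 can be shared with its close relatives Scd2, Scd3 and Scd4, and how the counting split them is not known.

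The genes moved together from spleen to spleen, with Scd1 and Lep apart. Within Con-sa, mouse 3 was the highest and mouse 2 the lowest for Adipoq, Cfd, Car3, Plin1, Fabp4, Cidec, Retn and Lpl. Within B-sa mouse 2 was the highest and mouse 1 the lowest for the same 8 genes, and within B+Con-FMT mouse 1 was the highest and mouse 2 the lowest. In B+A10-FMT no such order was shared, with spreads from 1.06-fold for Cfd to 2.31-fold for Retn. Each gene was compared with the mean log2(RPKM + 1) of the other 9 over the 12 spleens. Pearson's r was 0.97 for Adipoq, 0.96 for Cfd, 0.99 for Car3, 0.97 for Plin1, 0.97 for Fabp4 and 0.97 for Cidec, with Spearman's rho of 0.88 to 0.97. It was 0.89 for Lpl, 0.82 for Retn, 0.65 for Lep and 0.12 for Scd1. After the group means were taken out, r was 0.90 to 0.96 for the 6 genes named first, 0.89 for Lpl, 0.88 for Retn, -0.29 for Lep and -0.40 for Scd1. Without mouse 2 of B-sa and mouse 2 of B+Con-FMT, the spleens farthest from the median, r stayed at 0.93 to 0.98 for the 6 genes, and was 0.76 for Lpl, 0.62 for Retn, 0.53 for Lep and 0.25 for Scd1. The spleens share depth and library type and the genes were chosen together, so these values describe likeness and were not tested.

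**Figure D2:**
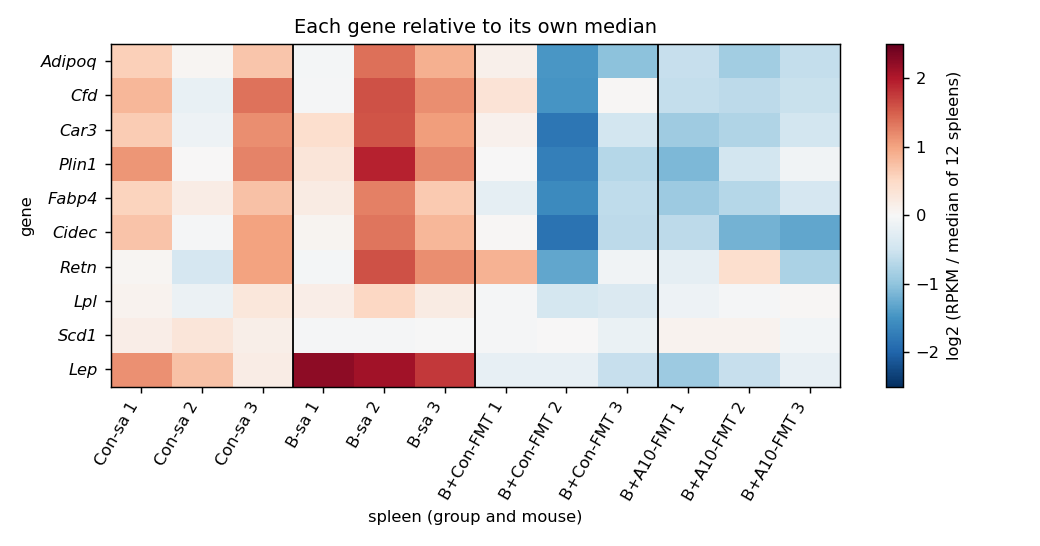
Log2 of the RPKM of each gene (rows) over its own median of the 12 spleens, by spleen (columns, grouped by treatment and separated by black lines). The first 7 rows darken together in mouse 2 of B-sa and turn blue together in mouse 2 of B+Con-FMT, while Scd1 stays near 0 and Lep is raised in all 3 B-sa spleens.

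Ratios to Adipoq in the same spleen were not fixed for any gene. From the lowest to the highest spleen they differed by 1.66-fold for Fabp4, 1.86-fold for Car3 and 2.09-fold for Cidec. The range was 2.14-fold for Plin1, 2.41-fold for Cfd, 3.55-fold for Retn and 3.696-fold for Lpl. It was widest for Lep, at 6.91-fold, and Scd1, at 7.29-fold. Fabp4 was 5.66 to 9.41 times Adipoq, Car3 6.79 to 12.7 times and Cfd 3.77 to 9.08 times. The groups overlapped for Fabp4 and Cfd. For Car3 the B+A10-FMT ratios, up to 9.494, lay just below the B-sa ratios, which began at 9.642. The ratio of Lpl to Adipoq was 1.55 to 1.94 for Con-sa, 1.20 to 2.52 for B-sa, 1.98 to 4.44 for B+Con-FMT and 2.97 to 3.96 for B+A10-FMT. The ratio of Scd1 to Adipoq ran from 3.71 in mouse 2 of B-sa to 27.0 in mouse 2 of B+Con-FMT. Lpl and Scd1 thus kept most of their level in the spleens where Adipoq was lowest. The ratio of Lep to Adipoq was 0.0127 to 0.0291 for Con-sa, 0.0295 to 0.0874 for B-sa, 0.0143 to 0.0426 for B+Con-FMT and 0.0142 to 0.0235 for B+A10-FMT.

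**Figure D3:**
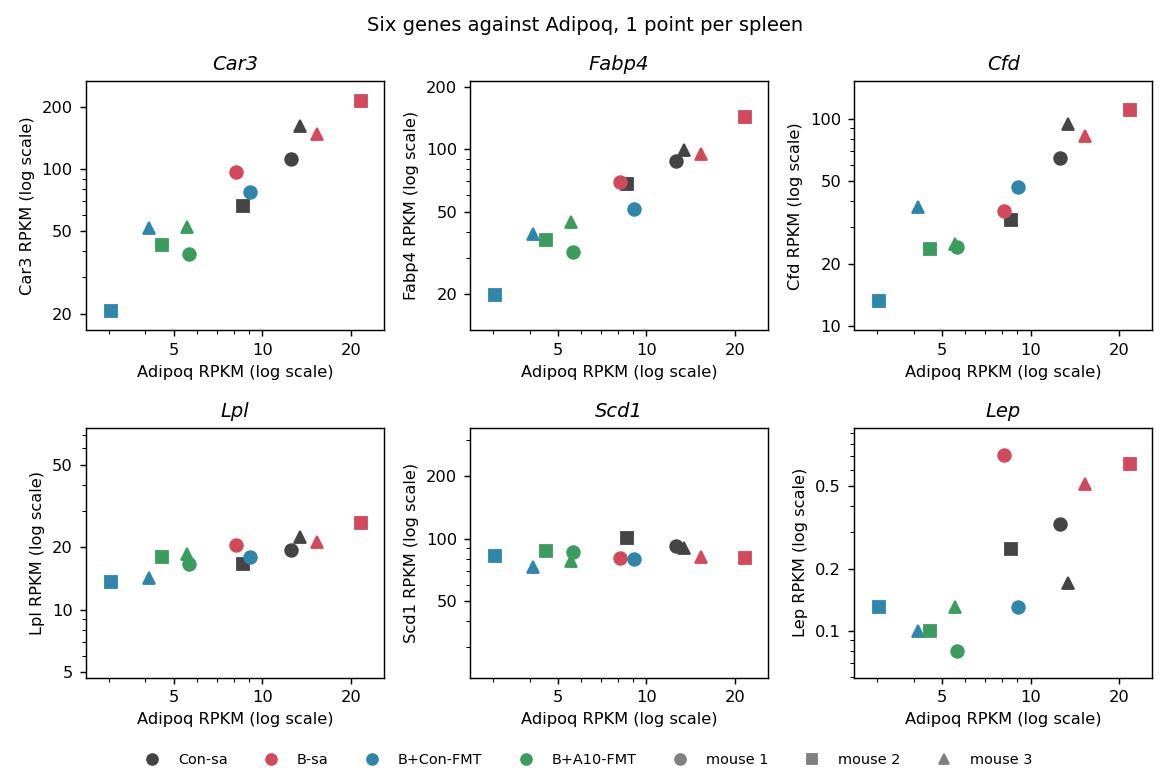
RPKM of 6 genes against Adipoq in the same spleen, both on log axes, with colour for the group and shape for the mouse. Car3, Fabp4 and Cfd rise along a line with Adipoq, Lpl rises little, Scd1 is flat at 72.7 to 100.4 RPKM, and the Lep values of B-sa lie above the others at any level of Adipoq.

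As 1 value per spleen, the mean log2(RPKM + 1) of the 10 genes was 4.18, 3.73 and 4.43 for Con-sa, 3.89, 4.80 and 4.42 for B-sa, 3.85, 2.82 and 3.41 for B+Con-FMT and 3.33, 3.39 and 3.39 for B+A10-FMT. The summed RPKM of the 10 genes ran from 156 in mouse 2 of B+Con-FMT to 625.5 in mouse 2 of B-sa. On either measure all 3 B+A10-FMT spleens lay below all Con-sa and B-sa spleens. Mouse 1 of B+Con-FMT lay inside the Con-sa range by the mean log2 value, while its sum of 297 RPKM was under the lowest Con-sa sum of 302 RPKM. The difference of group means of the mean log2 value was 0.26 for B-sa against Con-sa, -1.01 for B+Con-FMT against B-sa, -1.001 for B+A10-FMT against B-sa, 0.01 for B+A10-FMT against B+Con-FMT, -0.75 for B+A10-FMT against Con-sa and -0.76 for B+Con-FMT against Con-sa. The SD between mice was 0.35 for Con-sa, 0.46 for B-sa, 0.52 for B+Con-FMT and 0.03 for B+A10-FMT. With any 1 mouse left out the difference of B-sa from Con-sa ran from 0.04 (without mouse 2 of B-sa) to 0.50 (without mouse 1 of B-sa), and that of B+A10-FMT from B+Con-FMT from -0.26 to 0.26. Comparisons of both transplant groups with B-sa, or with Con-sa, use the same 3 control mice and are not independent of each other.

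The question of the first comparison was what busulfan alone did. Between B-sa and Con-sa 8 of the 10 genes overlapped, Lep was higher in B-sa and Scd1 was lower without overlap. Among all 12671 genes tested, 11.2% were higher and 22.8% lower in all 3 B-sa spleens. The log2 fold change from limma, a linear model fitted over all genes with a shared estimate of spread, had a median of 0.23 over the 9 genes tested, against -0.04 over all genes. These fold changes are on the log2(RPKM + 1) scale, which understates changes of low genes. The log2 fold change was 0.44 ± 0.52 for Car3, 0.60 ± 0.55 for Retn, 0.29 ± 0.40 for Adipoq and 0.20 ± 0.12 for Lpl (SE). In this comparison 4.73% of all genes were called higher and 9.78% lower. Scd1 was the 1 gene of 9 that passed the Benjamini-Hochberg threshold, lower by a log2 fold change of -0.22 ± 0.06, in a comparison where 14.5% of all genes passed. The call was lost when any 1 of the 6 mice compared was left out, with median-of-ratios scaling, with the transcript of highest mean in place of the sum and with only these groups in the fit.

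The transplant of control microbiota was compared with busulfan alone. Between B+Con-FMT and B-sa 6 of the 10 genes, Car3, Plin1, Fabp4, Cidec, Lpl and Lep, were lower in all 3 spleens without overlap, a pattern shown by 9.05% of all genes. The log2 fold change was -1.70 ± 0.52 for Car3, -1.49 ± 0.37 for Fabp4, -1.34 ± 0.40 for Adipoq, -1.24 ± 0.59 for Cfd, -1.23 ± 0.38 for Cidec, -1.12 ± 0.31 for Plin1, -0.89 ± 0.55 for Retn, -0.54 ± 0.12 for Lpl and -0.05 ± 0.06 for Scd1. Its median over these 9 genes was -1.23. None of the 9 passed the limma threshold, which 0.844% of all genes passed, while 2329 of the 12671 genes had an unadjusted p under 0.05. Without mouse 1 of B-sa, the low spleen of that group, Adipoq, Plin1 and Lpl passed and the count over all genes rose from 107 to 468. Without mouse 2 of B-sa none passed and the count over all genes was 19.

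The transplant of microbiota from alginate oligosaccharide donors was compared with the same B-sa spleens. Between B+A10-FMT and B-sa 8 of the 10 genes, all but Retn and Scd1, were lower without overlap, against 7.39% of all genes. The log2 fold change was -1.69 ± 0.52 for Car3, -1.48 ± 0.59 for Cfd, -1.41 ± 0.38 for Cidec, -1.37 ± 0.37 for Fabp4, -1.27 ± 0.40 for Adipoq and -1.03 ± 0.31 for Plin1, with a median of -1.27 over the 9 genes tested. None passed the limma threshold, which 5.27% of all genes passed and 3101 genes met at an unadjusted p under 0.05. Without mouse 1 of B-sa, Adipoq, Plin1 and Cidec passed and the count over all genes rose from 668 to 833. Without mouse 2 of B-sa none of the 9 passed and the count over all genes was 141.

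Both transplant groups were also compared with the spleens that had seen no busulfan. Between B+A10-FMT and Con-sa 8 of the 10 genes, all but Retn and Lpl, lay lower without overlap, against 9.93% of all genes. Scd1 was among the 8, at a log2 fold change of -0.17 ± 0.06, while Cidec was at -1.25 ± 0.38, Car3 at -1.24 ± 0.52 and Cfd at -1.24 ± 0.59. None passed the limma threshold, which 0.410% of all genes passed and 1710 genes met at an unadjusted p under 0.05. Between B+Con-FMT and Con-sa 3 genes, Fabp4, Scd1 and Lep, lay lower without overlap, against 23.6% of all genes. Only Scd1 passed the threshold there, at -0.27 ± 0.06, where 8.87% of all genes passed, 2.30% higher and 6.57% lower. That call was lost without mouse 1 or 2 of Con-sa and without mouse 1 or 3 of B+Con-FMT, and also with median-of-ratios scaling and with the transcript of highest mean.

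Between the transplant groups the ranges met for every gene. All 10 overlapped between B+A10-FMT and B+Con-FMT, in a comparison where 23.8% of all genes were higher and 11.2% lower in all 3 B+A10-FMT spleens. The log2 fold change was between -0.24 ± 0.59 for Cfd and 0.21 ± 0.12 for Lpl, with a median of 0.07, close to the median of 0.05 over all genes. None of the 9 genes passed, against 10.4% of all genes (7.58% higher and 2.78% lower) and 3663 genes at an unadjusted p under 0.05.

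**Figure D4:**
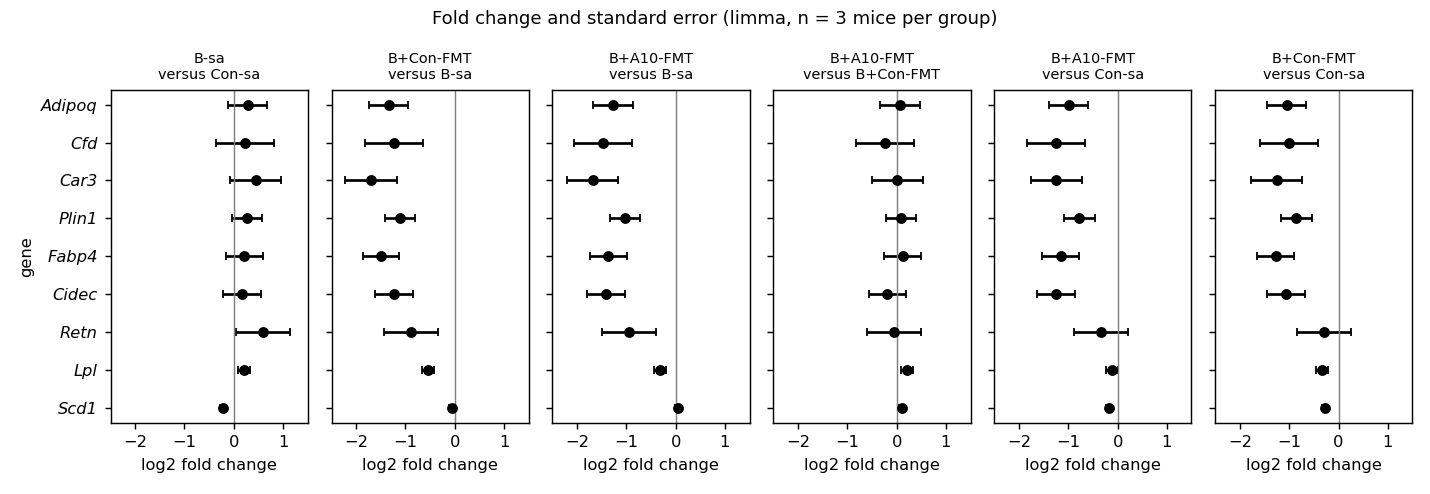
Log2 fold change of the 9 genes tested (points) with its limma standard error (bars) in the 6 comparisons, 3 mice per group, on the log2(RPKM + 1) scale. In the 4 comparisons of a transplant group with B-sa or Con-sa, Adipoq, Cfd, Car3, Plin1, Fabp4 and Cidec lie between -1.70 and -0.77, and Scd1 stays within 0.27 of 0 in all 6.

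Other genes of the white adipocyte, 29 listed and 21 tested, included few that passed the test after transplantation. Between B+A10-FMT and B-sa 16 of 21 had a negative log2 fold change, 2 fell and none rose past the threshold, where 1.27% of all genes fell. They were Plin4, a further coat protein of the droplet (log2 fold change -0.94 ± 0.24, limma adjusted p = 0.0473), and Aoc3, an amine oxidase of the adipocyte surface (-0.90 ± 0.22, limma adjusted p = 0.0380). Their means were 0.707 and 0.997 RPKM in B+A10-FMT against 2.43 and 2.69 RPKM in B-sa. Neither passed without the filter on low values, neither was tested where 1 RPKM was required of each mouse, and Plin4 did not pass with a replicate block. Between B+Con-FMT and B-sa, where 0.221% of all genes fell, 2 fell, Lipe, the hormone-sensitive lipase (-0.43 ± 0.09, limma adjusted p = 0.0451), and Acsl1, which activates long-chain fatty acids (-0.37 ± 0.08, limma adjusted p = 0.0460). Acsl1 was higher in B+A10-FMT against B+Con-FMT (0.28 ± 0.08, limma adjusted p = 0.0369), beside 7.58% of all genes. With median-of-ratios scaling neither Acsl1 call was kept (limma adjusted p = 0.0538 and 0.0835), and of the 21 genes Pde3b alone passed in the latter comparison, lower by a log2 fold change of -0.39. Against Con-sa, Pnpla2, the adipose triglyceride lipase (-0.34 ± 0.07, limma adjusted p = 0.0184), and Sncg (-0.60 ± 0.16, limma adjusted p = 0.0394) were lower in B+Con-FMT, beside 6.57% of all genes, and none of the 21 passed in B+A10-FMT. Slc2a4, the insulin-responsive glucose transporter, was higher in B-sa against Con-sa (0.31 ± 0.09, limma adjusted p = 0.0430), beside 4.73% of all genes, and did not pass with equal totals outside the globin genes (limma adjusted p = 0.0546). With the transcript of highest mean in place of the sum none of the other adipocyte genes passed in any comparison, and of the calls named here that of Pnpla2 alone was kept in every remaining alternative that used all mice.

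The median log2 fold change of the 21 genes was -0.26 for B+A10-FMT against B-sa and -0.38 for B+Con-FMT against B-sa, nearer to 0 than the medians of -1.27 and -1.23 over the 9 of the 10 genes that were tested. Of all 29 genes, 14 were lower and 1 higher without overlap in B+Con-FMT against B-sa, beside 9.05% and 10.4% of all genes tested. In B+A10-FMT against B-sa 8 were lower and 0 higher, beside 7.39% and 19.7%. Over the 12 spleens, r with the mean log2(RPKM + 1) of the 10 genes ran from -0.22 for Pde3b to 0.97 for Plin4 in this list. It was 0.83 for Lipe and Thrsp and 0.81 for Dgat2, but 0.16 for Slc2a4 and 0.14 for Bscl2. Pparg and Cebpa, the transcription factors of fat cell formation, are also expressed in myeloid cells. They did not follow the 10 genes, with r of 0.12 and 0.04. Their means by group were 5.23 to 6.69 RPKM for Pparg and 7.98 to 9.12 RPKM for Cebpa. Bscl2 (33.0 to 39.2 RPKM), Acsl1 (27.4 to 35.8 RPKM) and Pnpla2 (20.4 to 26.05 RPKM), the most abundant genes of this list by group mean, are not specific to fat.

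Lists for neighbouring steps of lipid metabolism held calls whose number varied with the scaling. Of 5 droplet genes of other cells that were tested, Plin2 alone passed, higher in B+Con-FMT against Con-sa (0.31 ± 0.07, limma adjusted p = 0.0218). With median-of-ratios scaling Plin2 (limma adjusted p = 0.0473) and Abhd5 (0.0324) were also higher in B-sa against Con-sa, beside 966 of all genes. With equal totals outside the globin genes Abhd5 was higher in B+A10-FMT against B+Con-FMT (limma adjusted p = 0.047), beside 2099. The summed level of the droplet list spanned 1.29-fold over all spleens. Of 9 lipogenic genes, Scd2 was lower in B-sa (-0.27 ± 0.08, limma adjusted p = 0.0360) and in B+Con-FMT (-0.34 ± 0.08, limma adjusted p = 0.0202) than in Con-sa, the direction of Scd1. Me1, the NADPH source malic enzyme, was lower in B+Con-FMT against B-sa (-0.68 ± 0.14, limma adjusted p = 0.0492) and Con-sa (-0.57 ± 0.14, limma adjusted p = 0.0311), and Acaca, acetyl-CoA carboxylase, was higher in B+A10-FMT against B+Con-FMT (0.27 ± 0.08, limma adjusted p = 0.0485). Of 9 partners of lipoprotein lipase and fatty acid uptake, the scavenger receptor Cd36 was higher in B+A10-FMT against B+Con-FMT (0.44 ± 0.09, limma adjusted p = 0.0116) and lower in B+Con-FMT against Con-sa (-0.31 ± 0.09, limma adjusted p = 0.0480). With median-of-ratios scaling the calls of Scd2 in B-sa against Con-sa (limma adjusted p = 0.0658), of Acaca (0.0942) and of Cd36 against Con-sa (0.0988) were lost, and Fads1 was the lipogenic gene that passed in B-sa against Con-sa, higher by 0.28. Of all genes, 9.78% fell in B-sa against Con-sa, 0.221% in B+Con-FMT against B-sa and 6.57% in B+Con-FMT against Con-sa, where 2.30% rose, and 7.58% rose in B+A10-FMT against B+Con-FMT. With equal totals outside the globin genes, 3 of the 9 lipogenic genes fell in B+Con-FMT against B-sa and 4 against Con-sa. In B+A10-FMT 3 rose against B+Con-FMT. Of all 12671 genes, 113 and 1638 fell and 2099 rose in these comparisons with that scaling.

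Receptors and partners of the secreted factors were measured in the same spleens. Of 10 tested, Lepr, the leptin receptor, was lower in B+Con-FMT against Con-sa (-0.80 ± 0.19, limma adjusted p = 0.0258), with means of 1.93 ± 0.321 and 4.12 ± 0.710 RPKM (SD, n = 3 each), and its mean in B-sa was 2.94 ± 0.855 RPKM. Jak2, the kinase that LEPR signals through, was higher in B+A10-FMT against B+Con-FMT (0.24 ± 0.06, limma adjusted p = 0.0249), but not with median-of-ratios scaling (limma adjusted p = 0.0690). In these comparisons 6.57% of all genes fell and 7.58% rose. Each of the 18 calls of single genes in the adipocyte, droplet, lipogenic, uptake and receptor lists was lost without at least 1 of the 6 mice compared. Adipor1 was at 76.0 to 83.8 and Adipor2 at 26.5 to 28.1 RPKM by group mean. The complement genes C3, on whose product adipsin's pathway acts (239 to 269 RPKM by group mean), and Cfb, the substrate of adipsin (41.8 to 51.2 RPKM), did not pass in any comparison, and the summed level of the list spanned 1.11-fold.

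Stromal and surface genes of fat and of the abdominal lining moved in part with the 10 genes. The summed level of 8 mesothelial genes was 23.4, 18.4 and 25.3 RPKM for Con-sa, 22.2, 35.4 and 34.1 RPKM for B-sa, 20.1, 17.6 and 22.6 RPKM for B+Con-FMT and 19.8, 17.5 and 22.3 RPKM for B+A10-FMT. It was highest in mice 2 and 3 of B-sa, which were also high for Adipoq. Of 6 mesothelial genes tested, Upk1b (-0.75 ± 0.15, limma adjusted p = 0.0179), Lrrn4 (-0.66 ± 0.15, limma adjusted p = 0.0275) and Krt19 (-0.73 ± 0.19, limma adjusted p = 0.0490) fell in B+A10-FMT against B-sa, where 1.27% of all genes fell. Upk1b was higher in B-sa against Con-sa (0.61 ± 0.15, limma adjusted p = 0.0199), where 4.73% rose. The summed level of 10 fat stroma genes was 115.5 to 179 RPKM and highest in mouse 2 of B-sa. Of 9 tested, Dcn, a matrix proteoglycan, fell in B+A10-FMT against B-sa (-0.73 ± 0.15, limma adjusted p = 0.0222), while Fbn1 (0.37 ± 0.09, limma adjusted p = 0.0259) and Dpp4 (0.31 ± 0.08, limma adjusted p = 0.0323) were higher in B+A10-FMT against B+Con-FMT. Pdgfra was lower in B-sa (-0.28 ± 0.08, limma adjusted p = 0.0364) and B+Con-FMT (-0.33 ± 0.08, limma adjusted p = 0.0272) than in Con-sa, and Dpp4 was lower in B+Con-FMT against Con-sa (-0.29 ± 0.08, limma adjusted p = 0.0455). Of all genes, 7.58% rose in B+A10-FMT against B+Con-FMT, and 9.78% and 6.57% fell in B-sa and B+Con-FMT against Con-sa. Neither Dpp4 call was kept with median-of-ratios scaling (limma adjusted p = 0.0570 and 0.0786). The part of mesothelium and stroma in the differences of the 10 genes was not tested.

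RNA of liver, kidney and pancreas was present and differed between spleens. The summed level of 6 liver genes was 124, 24.5 and 261 RPKM for Con-sa, 13.8, 103 and 65.8 RPKM for B-sa, 19.7, 15.3 and 59.1 RPKM for B+Con-FMT and 17.8, 10.3 and 10.5 RPKM for B+A10-FMT. In Con-sa, B-sa and B+A10-FMT it followed the order of Adipoq over the mice, and in B+Con-FMT it did not. The summed level of 7 kidney genes, nearly all from Kap, was 75.6 to 117.5 RPKM for Con-sa, 7.85 to 15.2 RPKM for B-sa, 17.4 to 62.3 RPKM for B+Con-FMT and 0.830 to 3.33 RPKM for B+A10-FMT, an order of groups that the 10 genes do not share. Kap fell in B-sa against Con-sa (-3.00 ± 0.51, limma adjusted p = 0.0104), in B+A10-FMT against Con-sa (-5.24 ± 0.51, limma adjusted p = 0.0107), in B+A10-FMT against B-sa (-2.24 ± 0.51, limma adjusted p = 0.0443) and in B+A10-FMT against B+Con-FMT (-3.59 ± 0.51, limma adjusted p = 0.00789). The summed level of 18 acinar pancreas genes ran from 564 to 16520 RPKM and was highest in the 3 B+Con-FMT spleens and in mouse 3 of B+A10-FMT. All 18 were higher without overlap in B+Con-FMT against B-sa (median log2 fold change 3.25), beside 10.4% of all genes. Against Con-sa 15 of the 18 were (median 1.82), beside 10.6%. None of the 18 passed the threshold in any comparison. Slc34a1, the other kidney gene tested, fell in B-sa, B+A10-FMT and B+Con-FMT against Con-sa. Skeletal muscle genes summed to 10.4 to 30.3 RPKM, and of 3 tested Tnnt3 fell in B+A10-FMT against B+Con-FMT (-0.78 ± 0.18, limma adjusted p = 0.0204). None of the 6 liver genes and neither of the brown fat genes tested passed in any comparison. Of the 18 calls of single genes in the tissue, mesothelial and stromal lists, 3 held without any 1 of the 6 mice, Kap and Slc34a1 in B-sa against Con-sa and Kap in B+A10-FMT against B+Con-FMT. Against Con-sa, 9.78% of all genes fell in B-sa, 0.292% in B+A10-FMT and 6.57% in B+Con-FMT, and the share was 1.27% in B+A10-FMT against B-sa and 2.78% in B+A10-FMT against B+Con-FMT. How this RNA came into the libraries, and its part in the results, was not tested.

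**Figure D5:**
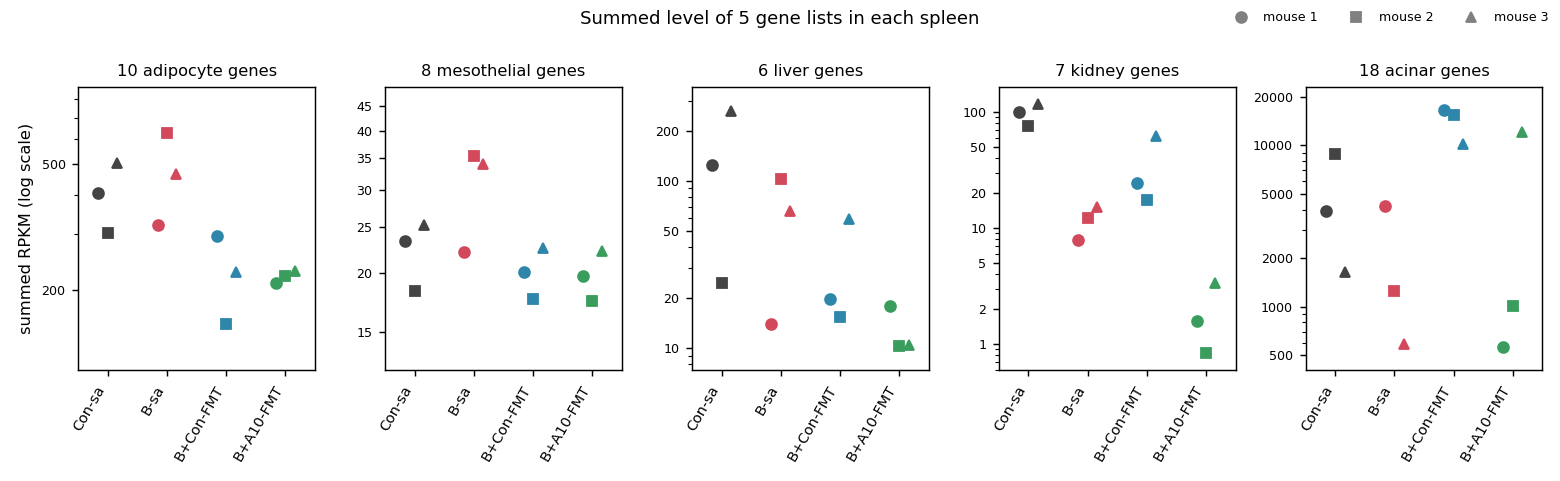
Summed RPKM (log axes) of the 10 adipocyte genes and of 4 lists of markers of neighbouring tissues in each spleen, by group, with the mouse number as marker shape. Mesothelial genes peak in mice 2 and 3 of B-sa, liver genes in mouse 3 of Con-sa, kidney genes in Con-sa, and acinar genes in B+Con-FMT and mouse 3 of B+A10-FMT.

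Immune and vessel cells of the spleen were compared because Lpl and Fabp4 are also used outside fat. Of 10 macrophage genes, 7 rose in B+A10-FMT against B+Con-FMT, where 7.58% of all genes did. Against B-sa 4 rose, beside 507 of all 12671 genes, and against Con-sa 1 rose, beside 0.118%. With median-of-ratios scaling the 7, 4 and 1 became 3, 3 and 0, and with equal totals outside the globin genes 7, 4 and 0. The summed level was 708 to 887 RPKM in B+A10-FMT and 513 to 684 RPKM in the other groups. Of these 12 macrophage calls 1 held without any 1 of the 6 mice compared, that of Slc40a1 against B+Con-FMT. Of 9 neutrophil genes 3 rose in B-sa against Con-sa, beside 4.73% of all genes, or 2 with equal totals outside the globin genes, and each of the 3 calls was lost without at least 1 mouse. Of 8 endothelial genes 2 fell in B-sa (9.78% of all genes) and 6 in B+Con-FMT (6.57%) against Con-sa, and 6 rose in B+A10-FMT against B+Con-FMT and 3 against B-sa. With median-of-ratios scaling these endothelial counts were 2, 4, 5 and 3. Of the 17 calls 5 held without any 1 mouse, those of Stab2 in all 4 comparisons and of Kdr in B+A10-FMT against B+Con-FMT. Of the 12 genes of lymphocytes and the red cell lineage, 4 fell in B-sa against Con-sa (9.78% of all genes) and 1 rose in B+Con-FMT against B-sa (0.623%). Against Con-sa 2 rose and 1 fell in B+Con-FMT (2.30% and 6.57%). Of these 8 calls, those of Cd79a and Cd79b in B-sa against Con-sa, 2 in all, held without any 1 mouse. The part of these cells in the levels of the 10 genes was not tested.

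The genes outside the 10 that were most like them over the 12 spleens were picked by Pearson's r with the mean log2(RPKM + 1) of the 10. Of 12662 genes 13 had r above 0.9. The closest was Plin4 (r = 0.97, rho = 0.96), followed by Fmo1 (r = 0.96, rho = 0.97), a flavin monooxygenase, and Glb1l2 (r = 0.96, rho = 0.94). Cdo1, cysteine dioxygenase (r = 0.95, rho = 0.97), Aoc3 (r = 0.95, rho = 0.93) and Ces1d, a carboxylesterase (r = 0.94, rho = 0.90), were also among the closest. So were Ghr, the growth hormone receptor (r = 0.93, rho = 0.88), Serpina3c (r = 0.92, rho = 0.95) and Pck1, the enzyme of glyceroneogenesis (r = 0.92, rho = 0.90). With the group means taken out, r was 0.77 to 0.97 for the genes named here, lowest for Serpina3c and highest for Fmo1. Without mouse 2 of B-sa and mouse 2 of B+Con-FMT it was 0.83 to 0.97, lowest for Ghr. The 13 also held Krt19 of the mesothelial list (r = 0.91, rho = 0.88) and Cyp2e1 of the liver list (r = 0.91, rho = 0.86), with r of 0.80 and 0.91 after the group means were taken out. Their part in the result was not tested. Levels of the genes closest to the 10 were modest, with Cdo1 the highest of those named before at 2.59 to 12.4 RPKM and Serpina3c the lowest at 0.17 to 1.18 RPKM.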

How the data were processed

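Spleen RNA of 12 mice was sequenced as polyA-enriched libraries. Groups were taken from the sample labels, with 3 mice each. The deposited values are RPKM that the authors computed from reads mapped to reference genes and listed for 60654 RefSeq transcripts in 1 table per mouse. The methods name SOAPaligner and the submitters' processing notes list HISAT, Bowtie2 and mm10; which of them made the tables is not given in the sources used here. Lengths and mapped totals enter RPKM, so a few very abundant transcripts lower all others.

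RPKM were summed to 18221 genes, of which 18101 were named from RefSeq (GRCm38.p6). The 12671 genes that reached 1 RPKM in 3 or more mice entered a limma 3.58.1 fit of log2(RPKM + 1) (R 4.3.3, trend and robust) of all 12 mice, in 6 comparisons, with Benjamini-Hochberg adjustment and calls at 0.05. The fit was checked on simulated data. Depth was estimated from the whole-read steps of low values at 14800000 to 15900000 reads. No 2 mice had near-identical tables, since at least 16408 genes differed. Alternatives were another pseudocount (0.1), other filters, scalings and gene levels, only the groups compared, a replicate block and leaving out each mouse. The block was not part of the main fit because the labels do not say that replicate numbers pair the mice. The fit gave p-values for the 9 of the 10 genes that entered it; they are not printed, and their calls are given as a description.

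The 10 genes and the 17 lists, the 10 genes among them, were chosen with earlier results of these data known. Named genes are the 10, the 10 others with the highest r (1 of them is not reported here), and from each list genes of the highest mean level and genes past the threshold, with the immune, liver and acinar lists given by counts, sums and the calls that held without any 1 mouse and the other tissue lists by sums and genes past the threshold. Tables of the paper were not used.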

Additional observations from a re-analysis of the deposited data

How the results depend on the processing

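The differences in the mean log2(RPKM + 1) of the 10 genes moved in every alternative by less than the pooled SD between mice of both groups compared, which is wider than the SD of 0.03 in B+A10-FMT alone, and the smallest of them, B+A10-FMT against B+Con-FMT, changed sign. With 1 mouse left out they ran from 0.04 to 0.50 (B-sa against Con-sa), from -1.26 to -0.74 (B+Con-FMT against B-sa), from -1.24 to -0.79 (B+A10-FMT against B-sa), from -0.26 to 0.26 (B+A10-FMT against B+Con-FMT), from -0.94 to -0.59 (B+A10-FMT against Con-sa) and from -1.002 to -0.49 (B+Con-FMT against Con-sa). Counts of genes past the limma threshold were less stable, and the cause was not tested. Without the filter, 2 of the 10 genes passed for B-sa against Con-sa (Scd1 and Lep), 1 for B+Con-FMT against B-sa and 1 for B+A10-FMT against B-sa (Lep in both), and of the other adipocyte genes 0, 0, 0 and 1 passed for B+Con-FMT against B-sa, B+A10-FMT against B-sa, B+A10-FMT against B+Con-FMT and B+Con-FMT against Con-sa. With equal totals outside the globin genes, 1 of the 10 passed for B+Con-FMT against B-sa (Lpl) and 2 for B+Con-FMT against Con-sa (Fabp4 and Scd1), and of the other adipocyte genes 0 for B-sa against Con-sa, 3 for B+A10-FMT against B+Con-FMT and 4 for B+Con-FMT against Con-sa. Median-of-ratios scaling left 0 of the 10 for B-sa and for B+Con-FMT against Con-sa, and gave 2 other adipocyte genes for B-sa against Con-sa and 1 for B+Con-FMT against B-sa. With the transcript of highest mean in place of the sum, 0 of the 10 passed for B-sa and for B+Con-FMT against Con-sa, and 0 other adipocyte genes in any comparison. With only the groups compared in the fit, 0 of the 10 and 0 of the others passed for B-sa against Con-sa, and 0, 1 and 1 of the others for B+Con-FMT against B-sa, B+A10-FMT against B-sa and B+Con-FMT against Con-sa. A pseudocount of 0.1 left 1 other adipocyte gene for B+A10-FMT against B-sa, and requiring 1 RPKM or more of each mouse left 0.

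Deviations from the group means correlated at r of -0.37 to 0.30 between same-numbered mice. The labels do not say that the numbers pair the samples, and these values cannot exclude that they do. With a replicate block, 0 other adipocyte genes passed for B-sa against Con-sa, 0 for B+Con-FMT against B-sa and 1 (Aoc3) for B+A10-FMT against B-sa.

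With 1 mouse left out, the count of the 10 genes past the threshold ran from 0 to 0 for B-sa against Con-sa, from 0 to 3 for B+Con-FMT and for B+A10-FMT against B-sa, and from 0 to 1 for B+Con-FMT against Con-sa, and stayed at 0 for B+A10-FMT against B+Con-FMT and Con-sa. That of the other adipocyte genes ran from 0 to 3, 0 to 5, 0 to 4, 0 to 2 and 0 to 2 for B-sa against Con-sa, B+Con-FMT against B-sa, B+A10-FMT against B-sa, B+A10-FMT against B+Con-FMT and B+Con-FMT against Con-sa. Over all genes the count ran from 510 to 2100, 19 to 468, 106 to 833, 222 to 1159, 1 to 49 and 337 to 665 for B-sa against Con-sa, B+Con-FMT against B-sa, B+A10-FMT against B-sa, B+A10-FMT against B+Con-FMT, B+A10-FMT against Con-sa and B+Con-FMT against Con-sa, compared with 1838, 107, 668, 1312, 52 and 1124 with all mice. Other settings gave 547 to 1842, 23 to 180, 111 to 724, 315 to 2338, 1 to 67 and 258 to 1837. Median-of-ratios scaling turned the split of calls for B-sa against Con-sa from 599 higher and 1239 lower to 966 and 736, for B+A10-FMT against B-sa from 507 and 161 to 287 and 329, for B+A10-FMT against B+Con-FMT from 960 and 352 to 552 and 695, and for B+Con-FMT against Con-sa from 292 and 832 to 631 and 499. Equal totals outside the globin genes turned the split for B+Con-FMT against B-sa from 79 and 28 to 67 and 113 and for B+A10-FMT against B+Con-FMT to 2099 and 239, and for B+Con-FMT against Con-sa to 199 and 1638. Depth limits Lep most, at an estimated 3.92 to 33.9 reads per spleen.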

Other observations

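Transcripts of Cfd and Cidec were listed apart in the tables, and their shares were looked at after the values were seen. Cfd has 2 transcripts in the tables, matched to reference transcripts of 871 and 922 bases. The lengths given for Cidec are also those of matched reference transcripts. The shorter one held 63.6% to 65.2% of the Cfd RPKM in the 3 B+A10-FMT spleens, against 52.2% to 55.0% for Con-sa, 52.4% to 59.8% for B-sa and 51.7% to 55.6% for B+Con-FMT. In RPKM the longer transcript was 8.79, 8.23 and 8.64 in B+A10-FMT and the shorter one 15.4, 15.2 and 16.2. Mouse 2 of B+Con-FMT, which had less Cfd than any B+A10-FMT spleen, had a share of 52.2%. The difference in shares was not tested, and how the counting divided reads that both transcripts share is not known.

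Cidec changed its listed transcript from spleen to spleen. The transcript of 1720 bases was listed at 0 in 3 spleens and the transcript of 1703 bases in 2 others, and in mouse 1 of Con-sa the former held 94.6% of the gene while in mouse 2 of Con-sa the latter held 100%. The Cidec levels given above are sums over its transcripts, as for every gene.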
